A study of Triticum aestivum with 9 samples.

Results

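The high-molecular-weight glutenin genes of chromosomes 1B and 1D were TraesCS1B02G329711 and TraesCS1B02G329992 at the Glu-B1 locus, and TraesCS1D02G317211 and TraesCS1D02G317301 at the Glu-D1 locus. They were chosen by their gene identifiers and not by their measured values, though with earlier results of these data known. Each gene had 1 transcript, so the 4 genes gave 4 of the 133744 transcripts and 4 of the 107891 genes quantified. RNA came from filling grains of the main stem of bread wheat (Triticum aestivum), cultivar Chinese Spring, a hexaploid with A, B and D subgenomes. Plants were moved to a chamber at 20 °C 12 days after flowering, adapted for 3 days, and then either stayed at 20 °C as the control or were exposed for 1 h to 30 or 40 °C in the light. Grains of 3 plants were sequenced at each temperature, giving 9 samples that differ by temperature alone in the labels, and the study calls the plants independent. All 3 groups come from a single cultivar, and the whole grain was extracted, so embryo, endosperm and outer layers are mixed.

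High-molecular-weight (HMW) glutenins are storage proteins of the starchy endosperm, the tissue that fills most of the grain. Their subunits are linked end to end by disulphide bonds into long polymers, and these polymers give dough its elasticity. Each Glu-1 locus, on the long arm of a group 1 chromosome, carries an x-type and a y-type subunit gene side by side. The genes are transcribed in the endosperm during grain filling, under factors such as the prolamin-box binding factor. The 4 genes cover the x- and y-type subunits of both loci, but which of each pair is x or y is not annotated in the tables used here, so the genes are called by their identifiers.

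The transcript models were of unequal length, at 1026 bases for TraesCS1B02G329711.1, 2228 bases for TraesCS1B02G329992.1, 2526 bases for TraesCS1D02G317211.1 and 1856 bases for TraesCS1D02G317301.1. FPKM (fragments per kilobase of model, scaled to the library total) divides by that length, so the FPKM order of the 4 transcripts rests on these models. Subunit genes of this family have long repeats in common, and RSEM, the program that estimated the counts, divides a fragment that fits several transcripts among them by likelihood. The expected count, RSEM's estimate of fragments per transcript, was whole for none of the 4 transcripts in any of the 9 samples. The division of fragments among the 4, and with other similar genes, is therefore an estimate.

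Library totals of expected counts ran from 15778561 to 19497182, and at 3 fragments per library the smallest total corresponds to 0.190 CPM (fragments relative to the size of the library), far under every value given for the 4 genes. At 40 °C, replicate 3 stood apart from the other 2 plants. The 100 most abundant transcripts other than the HMW glutenins took 35.1% of its expected counts, against 26.1% and 26.7% in replicates 1 and 2 at 40 °C, 27.4 to 31.7% at 30 °C and 33.6 to 37.8% at 20 °C. Its TMM factor, the scaling edgeR applies to a library for its make-up, was 0.832, while the other 8 samples lay between 0.981 and 1.07. Calls, mean FPKM, library shares and ratios at 40 °C are therefore also given without this plant, and what set it apart was not tested.

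All 4 HMW glutenin transcripts were abundant in control grains. By mean FPKM at 20 °C, TraesCS1B02G329711.1 ranked 41, TraesCS1D02G317301.1 ranked 83, TraesCS1D02G317211.1 ranked 107 and TraesCS1B02G329992.1 ranked 136 among all transcripts. At 40 °C the ranks were 54, 120, 126 and 213, in the same order of genes. The mean FPKM of every gene was lower after 1 h at 30 °C, at 0.648 to 0.816 times the control mean, and at 40 °C it was 0.534 to 0.687 times the control mean. Without replicate 3 the range at 40 °C was 0.455 to 0.627 times, with mean FPKM of 1007 for TraesCS1D02G317301.1, 1015 for TraesCS1D02G317211.1, 3116 for TraesCS1B02G329711.1 and 487 for TraesCS1B02G329992.1. In bulk grain RNA, fewer endosperm cells and less glutenin RNA per cell cannot be told apart.

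TraesCS1D02G317301.1, at Glu-D1, had the lowest ratio to the control of the 4 at both temperatures. Its FPKM was 2303, 2221 and 2110.1 in replicates 1 to 3 at 20 °C, 1747, 1259 and 1296 at 30 °C, and 1064, 949.7 and 1528 at 40 °C. Every heated plant lay below every control plant, and the highest heated value was that of replicate 1 at 30 °C. The means were 2211 ± 96.65 FPKM at 20 °C, 1434 ± 272 FPKM at 30 °C and 1180.45 ± 306 FPKM at 40 °C (SD, n = 3). Relative to the control mean these are 0.648 times at 30 °C and 0.534 times at 40 °C.

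TraesCS1D02G317211.1, the other Glu-D1 gene, had FPKM values of 1605, 1737 and 1508 at 20 °C, 1442, 1032 and 1129 at 30 °C, and 1070.4, 959 and 1303 at 40 °C. The heated plants again lay below all 3 controls, while the plants at 30 and 40 °C overlapped. Mean FPKM was 1617 ± 114 at 20 °C, 1201 ± 214 at 30 °C and 1111 ± 176 at 40 °C (SD, n = 3), or 0.743 and 0.687 times the control mean.

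TraesCS1B02G329711.1, at Glu-B1, gave 5254, 5887 and 4734 FPKM at 20 °C, 4713, 3320.2 and 3443 FPKM at 30 °C, and 3267, 2965 and 4301 FPKM at 40 °C. Replicate 1 at 30 °C was barely below the lowest control plant, and the other 5 heated plants were further below it. Mean FPKM was 5292 ± 578 at 20 °C, 3826 ± 771 at 30 °C and 3511 ± 701 at 40 °C (SD, n = 3), which are 0.723 and 0.663 times the control mean for the heated groups. This transcript has the highest FPKM and also the shortest model of the 4.

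TraesCS1B02G329992.1, the other Glu-B1 gene, was the exception at 30 °C. Its FPKM was 875, 963 and 809.6 at 20 °C, 827, 645 and 688 at 30 °C, and 533, 440.5 and 657 at 40 °C. The 30 °C group overlapped the controls through replicate 1 (827 against 809.6 FPKM in the lowest control), whereas the 40 °C group did not overlap them. Mean FPKM was 883 ± 76.7, 719.8 ± 94.97 and 544 ± 109 at 20, 30 and 40 °C (SD, n = 3), so that the ratio to the control mean was 0.816 at 30 °C and 0.616 at 40 °C.

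**Figure D1:**
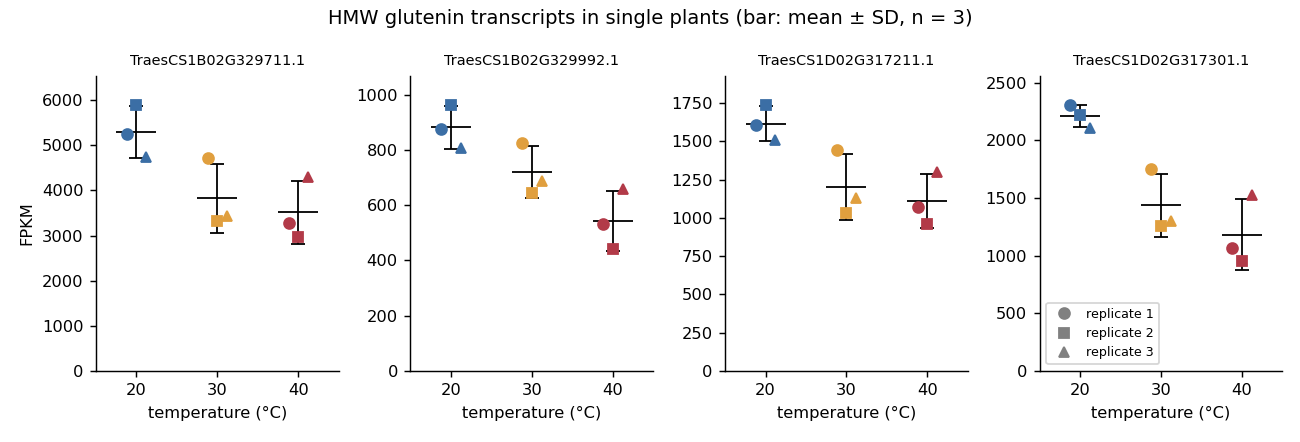
FPKM of the 4 HMW glutenin transcripts in each plant (vertical axis, from 0, scaled separately for each transcript) against temperature in °C, with the mean and SD of 3 plants as bars and marker shape giving the replicate number. The heated plants lie below the control plants in every panel except TraesCS1B02G329992.1 at 30 °C, and at 40 °C replicate 3 is the highest plant in all panels.

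The counts of 3 transcripts out of 4 were separated in the same way as FPKM at 30 °C, and of all 4 at 40 °C, when each was taken as a share of its library. FPKM and this share are both scaled to the library total, so the share is not a second check. The TMM factor of 0.832 for replicate 3 at 40 °C raises its values relative to those of the other plants. Whether the plants stay separated after TMM scaling was not tested. Between 30 and 40 °C the FPKM ranges of all 4 transcripts overlapped. The share of all tested transcripts in which every plant of the hotter group had a lower FPKM than every plant of the cooler group was 14.3% for 30 against 20 °C, 26% for 40 against 20 °C and 18.1% for 40 against 30 °C. The members' counts of 3 of 4, 4 of 4 and 0 of 4 stand against these shares.

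With every plant included, the spread of FPKM was larger in the heated groups than at 20 °C for all 4 genes. The coefficient of variation of FPKM at 20 °C was 10.9% for TraesCS1B02G329711.1, 8.69% for TraesCS1B02G329992.1, 7.08% for TraesCS1D02G317211.1 and 4.37% for TraesCS1D02G317301.1. In the same order of genes it was 20.2%, 13.2%, 17.8% and 19.0% at 30 °C, and 20.0%, 20.0%, 15.84% and 25.96% at 40 °C. Without replicate 1 at 30 °C, however, it was 2.08 to 6.40% over the 4 genes, below the control value for each of them. Without replicate 3 at 40 °C it was 6.85 to 13.5%, above the control value for 3 genes and below it for TraesCS1B02G329711.1. The plants left out were chosen because they lay apart, and no control plant was left out. A smaller spread follows in part from that choice, so these values are a description. Mean expected counts per gene and temperature ran from 19275 for TraesCS1B02G329992.1 at 40 °C to 72048 for TraesCS1B02G329711.1 at 20 °C, and the counting error on such counts is 0.373 to 0.720%. Each plant gave 1 library, so differences between plants and between library preparations cannot be told apart.

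The 4 transcripts kept nearly the same order of plants within each temperature. At 30 °C all 4 were highest in replicate 1, then replicate 3, then replicate 2. At 40 °C all 4 were highest in replicate 3, then replicate 1, then replicate 2. At 20 °C the order was replicate 2, 1, 3 for TraesCS1B02G329711.1, TraesCS1B02G329992.1 and TraesCS1D02G317211.1, and replicate 1, 2, 3 for TraesCS1D02G317301.1. Over the 9 samples, Pearson's r between the log2 FPKM of any pair of the genes was 0.920 to 0.994, highest for TraesCS1B02G329711 with TraesCS1D02G317211. These correlations are a description: the genes share libraries, temperature groups and fragments divided by RSEM.

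The test of each transcript compared 30 with 20 °C, 40 with 20 °C and 40 with 30 °C, with edgeR's quasi-likelihood test over all transcripts with a mean FPKM above 1 and a call at an FDR (Benjamini-Hochberg adjusted p) under 0.05. The comparisons of 30 and of 40 with 20 °C share the same control plants. None of the 4 HMW glutenin transcripts passed in any of the 3 comparisons. At an unadjusted p under 0.05 there were 3 of 4 at 30 against 20 °C, 1 of 4 at 40 against 20 °C and 0 of 4 at 40 against 30 °C, all lower, where 11.6%, 15.7% and 8.45% of all transcripts tested were lower at that threshold. DESeq2 called 1, 1 and 0 of the 4 lower, and 4.3%, 8.77% and 2.09% of all transcripts. The calls of limma on log2(FPKM + 1) were 0, 2 and 0 of the 4, and 1.83%, 11.3% and 1.11% of all transcripts. Of all 45956 transcripts tested at 30 against 20 °C, edgeR called 2.28% lower and 4.07% higher. Of 46250 at 40 against 20 °C it called 7.69% lower and 10.9% higher, and of 44638 at 40 against 30 °C 0.936% lower and 4.2% higher.

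At 30 against 20 °C the fitted log2 fold change was negative for all 4. TraesCS1D02G317301.1 had -0.65 (95% interval -1.08 to -0.21, edgeR FDR 0.0833), followed by TraesCS1B02G329711.1 with -0.49 (-0.96 to -0.02, FDR 0.186). TraesCS1D02G317211.1 had -0.45 (-0.88 to -0.03, FDR 0.180) and TraesCS1B02G329992.1 had -0.32 (-0.70 to 0.07, FDR 0.278). The median of the 4 log2 fold changes was -0.47, beside a median of 0.00 over all transcripts tested. DESeq2 put TraesCS1D02G317301.1 past the threshold (log2 fold change -0.65, adjusted p 0.00402), and edgeR with the replicate number as a block did so too (FDR 0.0395, with 2.73% of all transcripts called lower). Without replicate 1 at 30 °C, edgeR called 3 of the 4, the exception being TraesCS1B02G329992.1 (FDR 0.0882), and called 4.63% of all transcripts lower against 2.28% with every plant. That replicate was the 30 °C plant with the highest values of all 4, so leaving it out favours lower calls. Leaving out any other single plant of this comparison gave 0 calls among the 4.

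At 40 against 20 °C all 4 fitted values were again negative, with wider intervals. TraesCS1D02G317301.1 had a log2 fold change of -0.73 (-1.36 to -0.10, edgeR FDR 0.105) and TraesCS1B02G329992.1 one of -0.53 (-1.09 to 0.03, FDR 0.166). TraesCS1B02G329711.1 had -0.42 (-1.01 to 0.17, FDR 0.284) and TraesCS1D02G317211.1 -0.38 (-0.91 to 0.15, FDR 0.283). The median of the 4 was -0.48, beside 0.00 over all transcripts tested.

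The calls at 40 °C turned on replicate 3. Without that plant edgeR called all 4 HMW glutenin transcripts lower, at log2 fold changes of -1.09 for TraesCS1D02G317301.1 (FDR 0.00595), -0.81 for TraesCS1B02G329992.1 (FDR 0.0226), -0.71 for TraesCS1B02G329711.1 (FDR 0.0332) and -0.63 for TraesCS1D02G317211.1 (FDR 0.0373). In that comparison 8.07% of all transcripts were called lower, against 7.69% with every plant. Replicate 3 was the 40 °C plant with the highest values of all 4, so leaving it out favours lower calls. Leaving out any other single plant of this comparison gave 0 calls among the 4. Scaling also mattered: with library size in place of TMM, edgeR called TraesCS1D02G317301.1 (-0.91, FDR 0.0170) and TraesCS1B02G329992.1 (-0.70, FDR 0.0305), and 11% of all transcripts lower. Library size moved the median log2 fold change of all transcripts to -0.14, so these values stand against that shift. The choice also moved the split of all calls at 40 against 20 °C from 58.6% higher to 42.6% higher, and at 40 against 30 °C from 81.8% to 69.1% higher, with a median of -0.16.

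Between 40 and 30 °C the fitted log2 fold changes were near 0. TraesCS1B02G329992.1 had -0.25 (-0.80 to 0.31, edgeR FDR 0.618), TraesCS1D02G317301.1 -0.12 (-0.78 to 0.54, FDR 0.856), TraesCS1D02G317211.1 0.04 (-0.51 to 0.59, FDR 0.946) and TraesCS1B02G329711.1 0.03 (-0.57 to 0.64, FDR 0.958). The intervals span more than the size of the differences from 20 °C, so these data do not place the 40 °C level above or below that at 30 °C. With library size the values of TraesCS1B02G329711.1 and TraesCS1D02G317211.1 turned negative (both -0.12).

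**Figure D2:**
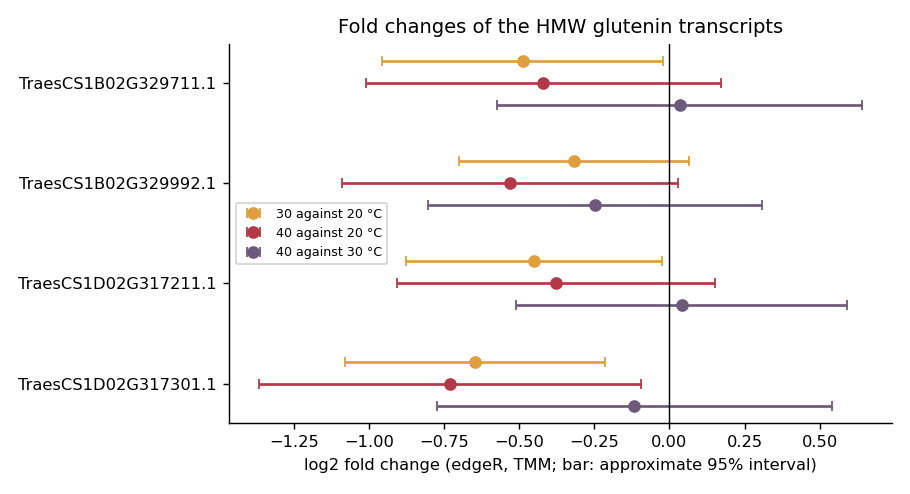
Log2 fold change of each HMW glutenin transcript from edgeR (horizontal axis, TMM scaling, 3 plants per group) for the 3 temperature comparisons, with approximate 95% intervals as bars and a vertical line at 0. All points for the comparisons with 20 °C lie left of 0, the furthest being TraesCS1D02G317301.1 at -0.73, and the points for 40 against 30 °C scatter around 0.

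Together the 4 transcripts took more than 1% of the expected counts of every control library. Their share was 1.37, 1.46 and 1.26% in replicates 1 to 3 at 20 °C, 1.19, 0.856 and 0.908% at 30 °C, and 0.810, 0.718 and 1.05% at 40 °C. All 6 heated plants were below all 3 controls, and replicate 1 at 30 °C and replicate 3 at 40 °C were the nearest to them. The mean share was 1.36 ± 0.0983% at 20 °C, 0.984 ± 0.178% at 30 °C and 0.860 ± 0.172% at 40 °C (SD, n = 3). The difference from 20 °C was -0.380 percentage points at 30 °C and -0.504 at 40 °C, each with a two-sided exact permutation p of 0.1, the smallest that 3 against 3 plants can give (0.15 adjusted over the 3 comparisons). From 30 to 40 °C the difference was -0.124 percentage points (exact p = 0.5).

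The mean share of the library in the 100 most abundant other transcripts was, like the glutenin share, lower in both heated groups. Within each temperature the plants were not in the same order for the 2 shares. At 40 °C replicate 3 had 35.1% in these 100, within the control range, but a glutenin share below every control. The mean share of the 100 differed by -6.01 percentage points between 30 and 20 °C (exact p = 0.1) and by -6.25 between 40 and 20 °C (exact p = 0.2). Its part in the HMW glutenin result was not tested. When those 100 transcripts were left out of the total, the 4 genes took 2.20, 2.26 and 1.90% at 20 °C, 1.74, 1.21 and 1.25% at 30 °C, and 1.10, 0.980 and 1.62% at 40 °C, and the heated plants still lay below all controls. By TPM, which corrects for model length, the 4 genes held 0.926 ± 0.0692%, 0.680 ± 0.124% and 0.593 ± 0.108% of the transcript pool at 20, 30 and 40 °C (SD, n = 3). Without replicate 3 at 40 °C the difference in expected count share from 20 °C was -0.599 percentage points.

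**Figure D3:**
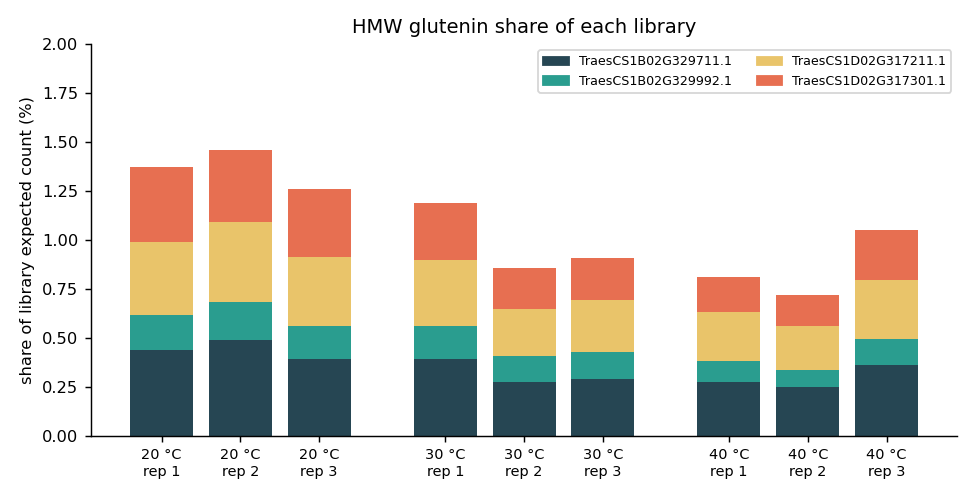
Share of each library's total expected count (vertical axis, percent, from 0) taken by the 4 HMW glutenin transcripts, stacked by transcript, with 1 bar per plant and replicates of 1 temperature grouped. Control bars reach 1.26 to 1.46%, and the heated bars 0.718 to 1.19%.

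Ratios of members within a library do not depend on how libraries are scaled to each other. These ratios are of expected counts and rest on RSEM's division of shared fragments. TraesCS1D02G317301, divided by its Glu-D1 neighbour TraesCS1D02G317211, gave 1.02, 0.911 and 0.997 at 20 °C, 0.864, 0.869 and 0.818 at 30 °C, and 0.709, 0.706 and 0.836 at 40 °C. Every heated plant was below every control plant, and replicate 3 at 40 °C lay within the 30 °C range. The mean ratio was 0.977 ± 0.0581, 0.850 ± 0.0278 and 0.750 ± 0.0741 at 20, 30 and 40 °C (SD, n = 3). Its log2 differed by -0.20 at 30 against 20 °C and by -0.38 at 40 against 20 °C (exact permutation p = 0.1 for each), and by -0.18 at 40 against 30 °C (exact p = 0.2). Without replicate 3 at 40 °C the mean ratio there was 0.707, a log2 difference of -0.46 from 20 °C.

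The Glu-B1 pair gave another pattern. TraesCS1B02G329992 divided by TraesCS1B02G329711 gave 0.408, 0.400 and 0.418 at 20 °C, 0.429, 0.475 and 0.487 at 30 °C, and 0.398, 0.363 and 0.373 at 40 °C. The ratio was thus above the controls in all plants at 30 °C and below them in all plants at 40 °C, though by little for replicate 1 at 40 °C. The log2 ratio differed by 0.18 at 30 against 20 °C, by -0.11 at 40 against 20 °C and by -0.29 at 40 against 30 °C, with an exact p of 0.1 for each. Without replicate 3 the difference of 40 against 20 °C was -0.10.

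Across loci, TraesCS1D02G317211 and TraesCS1B02G329711 kept the closest proportion, with a mean count ratio of 0.859 ± 0.0324, 0.882 ± 0.0305 and 0.890 ± 0.0361 at 20, 30 and 40 °C (SD, n = 3). The groups overlapped in all 3 comparisons (exact p of 0.3 to 1). TraesCS1D02G317301 to TraesCS1B02G329711 was 0.840 ± 0.0747, 0.749 ± 0.00868 and 0.666 ± 0.0378, and the log2 difference of 40 against 20 °C was -0.33 (exact p = 0.1). TraesCS1D02G317211 to TraesCS1B02G329992 was 2.10 ± 0.0337, 1.91 ± 0.0854 and 2.36 ± 0.121, with no overlap between any groups (exact p = 0.1 for each). TraesCS1D02G317301 to TraesCS1B02G329992 was 2.05 ± 0.147, 1.62 ± 0.0963 and 1.76 ± 0.135, lower than the controls without overlap only at 30 °C (exact p = 0.1). Without replicate 3 at 40 °C these log2 differences from 20 °C, in the same order of pairs, were 0.08, -0.38, 0.19 and -0.28, and none of the 4 overlapped the controls. Of the 6 pairs, 4 did not overlap at 30 against 20 °C, 4 at 40 against 20 °C and 3 at 40 against 30 °C. The 6 ratios reuse the same 4 genes and so depend on each other. The share of other transcript pairs without overlap was not computed, so these counts are a description. Over the 18 pair comparisons the smallest adjusted p of these exact permutation tests was 0.164, since 3 against 3 plants cannot go below 0.1 before adjustment.

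Summed by locus, Glu-D1 gave 1.23, 1.13 and 1.26 times the expected count of Glu-B1 at 20 °C, 1.12, 1.10 and 1.12 times at 30 °C, and 1.12, 1.13 and 1.13 times at 40 °C. The 6 heated plants lay close together, and replicate 2 at 20 °C lay just above the 30 °C plants and within the 40 °C range. The log2 ratio differed from 20 °C by -0.11 at 30 °C (exact permutation p = 0.1) and by -0.09 at 40 °C (exact p = 0.3), and between 40 and 30 °C by 0.02 (exact p = 0.3), all with an adjusted p of 0.3 over the 3 comparisons. Without replicate 3 the 40 °C difference was -0.10. As TPM, the ratio of Glu-D1 to Glu-B1 was 0.638, 0.578 and 0.653 at 20 °C and 0.576, 0.578 and 0.587 at 30 °C. At 40 °C it was 0.562, 0.560 and 0.571. In TPM the 30 °C plants thus overlapped the controls, and all 40 °C plants lay below them. Which locus was the higher, and which group was separated, therefore depended on the correction for model length. By TPM, TraesCS1B02G329711 made up 52.8, 53.2 and 55.4% of the 4 genes at 20, 30 and 40 °C, TraesCS1D02G317301 22.2, 20.0 and 18.5%, TraesCS1D02G317211 16.2, 16.7 and 17.6%, and TraesCS1B02G329992 8.82, 10.1 and 8.57%. Without replicate 3 the parts at 40 °C were 55.4, 17.9, 18.0 and 8.64% in that order. By mean FPKM, TraesCS1D02G317301.1 stood above TraesCS1D02G317211.1 at every temperature. The plants of each did not overlap at 20 °C but did at 30 and 40 °C, and within a plant TraesCS1D02G317301.1 was the higher in 3 of 3 plants at 20 °C, 3 of 3 at 30 °C and 1 of 3 at 40 °C.

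**Figure D4:**
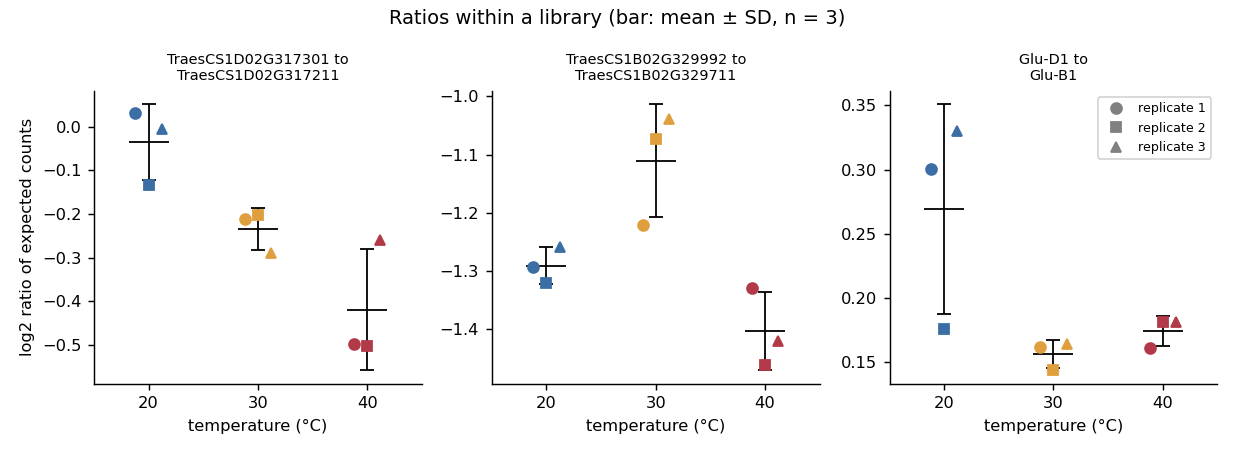
Log2 ratio of expected counts within a library (vertical axis, not starting at 0 and scaled separately in each panel) against temperature in °C for the Glu-D1 pair, the Glu-B1 pair and the sum of Glu-D1 over the sum of Glu-B1, with plants as points and the mean and SD of 3 plants as bars. The Glu-D1 pair is lower in all heated plants than in all controls, and the Glu-B1 pair is highest at 30 °C and lowest at 40 °C.

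Genes with neighbouring identifiers on 1B and 1D, and in the matching stretch of 1A, were compared to show the surroundings of the loci. The windows held 68 transcripts of 63 other genes, of which 10 had a mean FPKM of at least 5. These neighbours carry no name in the tables used here. edgeR called 2 of the 10 higher at 30 against 20 °C, 3 at 40 against 20 °C and 3 at 40 against 30 °C, and none lower in any comparison. Over all transcripts the shares called higher were 4.07%, 10.9% and 4.2% and those called lower 2.28%, 7.69% and 0.936%, so a count of 0 lower among 10 is no result about these neighbours. At an unadjusted p under 0.05, edgeR had 1, 1 and 0 of the 10 lower, and that 1 was TraesCS1A02G317311.1 both times.

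The neighbours that rose at 40 °C were TraesCS1B02G329300.1, TraesCS1D02G316900.1 and TraesCS1A02G316900.1. TraesCS1B02G329300.1 had 52.0, 50.8 and 51.2 FPKM at 20 °C, 89.9, 88.7 and 89.99 FPKM at 30 °C, and 206, 208 and 190.1 FPKM at 40 °C, with log2 fold changes against 20 °C of 0.78 (edgeR FDR 0.00555) and 2.12 (FDR 2.28e-05). TraesCS1D02G316900.1 rose from 94.7 ± 2.68 FPKM to 145 ± 5.64 and 226 ± 4.61 FPKM (SD, n = 3; log2 fold changes 0.59 and 1.41, edgeR FDR 0.0149 and 0.000217). Its call at 30 °C held under 13 of the 17 other settings and was lost without replicate 2 or 3 at 20 °C or replicate 2 or 3 at 30 °C (edgeR FDR 0.0552 to 0.0780), while that at 40 °C held under all 17. TraesCS1A02G316900.1 rose from 156 ± 10.4 to 311 ± 6.83 FPKM at 40 °C (1.14, edgeR FDR 0.00132), while its 196 ± 5.10 FPKM at 30 °C did not pass (FDR 0.173).

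TraesCS1A02G317311.1 was lower in all heated plants than in all controls, as most HMW glutenin values were. It had 57.6, 62.0 and 55.8 FPKM at 20 °C, 49.9, 43.3 and 44.4 FPKM at 30 °C, and 37.6, 31.2 and 39.0 FPKM at 40 °C, at a model length of 2321 bases. The log2 fold change was -0.37 at 30 °C (edgeR FDR 0.122) and -0.55 at 40 °C (FDR 0.0629), and the 40 °C value passed under 8 of the 17 other settings tried, DESeq2 and limma among them.

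The most abundant neighbours were TraesCS1A02G317500.1, TraesCS1B02G330000.1 and TraesCS1D02G317300.1. Their mean FPKM at 20, 30 and 40 °C was 1295, 1110.5 and 1283 for TraesCS1A02G317500.1, 1215, 1059 and 1295 for TraesCS1B02G330000.1, and 988, 891 and 991 for TraesCS1D02G317300.1, and none was called by edgeR. Their identifiers lie beside the HMW glutenin genes, and the last 2 were used as within-library references after their values had been seen. The summed Glu-B1 counts were 11.4, 9.99 and 10.5 times those of TraesCS1B02G330000 at 20 °C, 9.12, 8.89 and 9.16 times at 30 °C, and 7.05, 5.62 and 6.58 times at 40 °C. The summed Glu-D1 counts were 18.0, 13.4 and 15.85 times those of TraesCS1D02G317300 at 20 °C, 12.4, 11.3 and 12.0 times at 30 °C, and 9.88, 7.83 and 10.4 times at 40 °C.

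In both loci the ratio to the neighbour was lower at each higher temperature with no overlap between groups, and replicate 3 at 40 °C lay with the other 2 plants of its group. The log2 differences for Glu-B1 were -0.23, -0.73 and -0.50 for 30 against 20, 40 against 20 and 40 against 30 °C, and those for Glu-D1 were -0.40, -0.75 and -0.35. Without replicate 3 the differences of 40 against 20 °C were -0.75 for Glu-B1 and -0.83 for Glu-D1. Each comparison over all plants had an exact permutation p of 0.1, also after adjustment over these 6 comparisons. At 40 against 30 °C the references themselves had positive edgeR log2 fold changes. These were 0.45 for TraesCS1B02G330000.1 (FDR 0.339) and 0.31 for TraesCS1D02G317300.1 (FDR 0.438), beside -0.25 to 0.04 for the 4 members. The lower ratios at 40 °C therefore do not place the HMW glutenin level there below that at 30 °C. In the same order, the references had log2 fold changes of 0.27 and 0.17 at 40 against 20 °C (edgeR FDR 0.445 and 0.585). At 30 against 20 °C they had -0.22 and -0.17 (edgeR FDR 0.508 and 0.601). The ratios against 20 °C thus also hold the references' own differences. Because the references were picked after their values were seen, these ratios are a description.

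**Figure D5:**
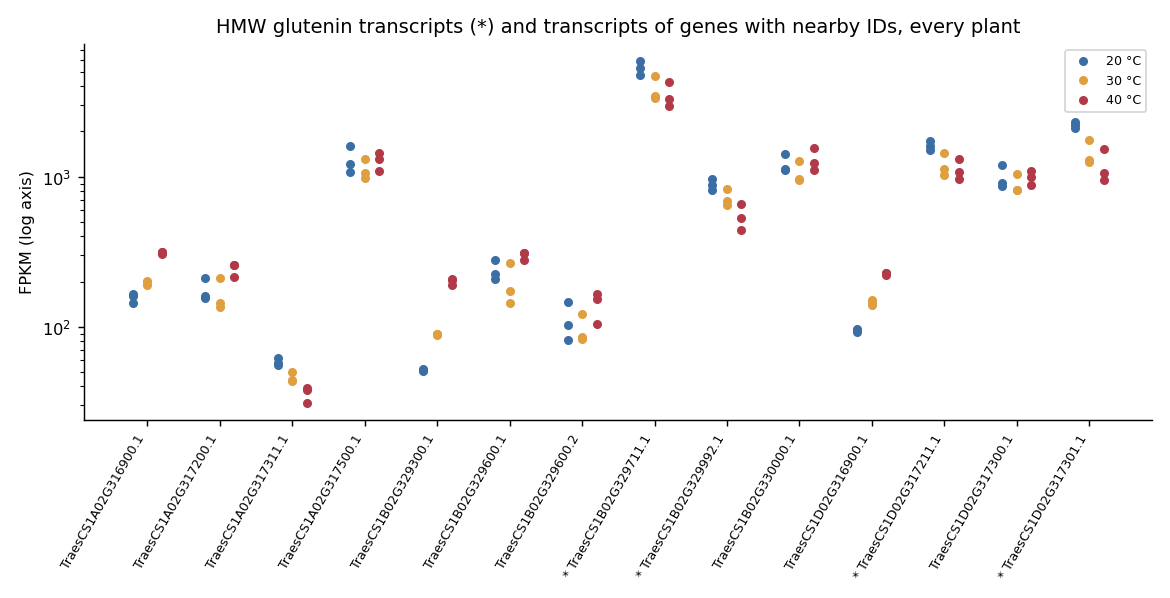
FPKM (vertical axis, log scale) in every plant for the 4 HMW glutenin transcripts, marked with an asterisk, and for the 10 transcripts with neighbouring identifiers on 1A, 1B and 1D, with colour giving the temperature. The HMW glutenin points are mostly lower in heated than in control plants, whereas those of TraesCS1B02G329300.1, TraesCS1D02G316900.1 and TraesCS1A02G316900.1 are higher at 40 °C.

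The HMW glutenin pattern was taken as the mean log2 value of the member transcripts in each sample. The transcripts most like it over the 9 samples, out of 16795 with a mean FPKM of at least 5, were TraesCS4D02G220500.1 (Pearson's r 0.983), TraesCS6A02G048900.1 (0.975), TraesCS1B02G007700.1 (0.974), TraesCS6A02G049700.1 (0.974) and TraesCS6A02G049066.1 (0.968). They span a wide range of levels: TraesCS6A02G049700.1 had a mean of 4111 FPKM at 20 °C and 2855 FPKM at 40 °C, and TraesCS1B02G007700.1 had 15.1 and 9.30 FPKM. They were picked for their likeness over the same 9 samples, so their fold changes follow those of the HMW glutenins by construction and are not tested here.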

How the data were processed

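RNA of filling grains from 3 plants at each of 20, 30 and 40 °C was sequenced as paired-end reads. Read trimming by the authors used Trimmomatic 0.36, the reference was IWGSC v1.0, and transcript levels came from RSEM 1.3.0. For each transcript the authors deposited the expected count, an estimate of fragments without normalization. Also deposited were TPM and FPKM, both corrected for length, and the percent of a gene's expression that each isoform holds. The submitters' processing notes name edgeR (version 3.24.3).

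Groups and replicate numbers came from the sample titles. After rounding of the expected counts and a filter on mean FPKM (above 1 in either group), edgeR's quasi-likelihood test with TMM factors was fitted to the 6 samples of each comparison, with Benjamini-Hochberg adjustment over all transcripts tested (edgeR 4.0.16, limma 3.58.1, R 4.3.3). Intervals of log2 fold changes are approximate, from the test's F statistic. The test was first tried on simulated counts. Shares and ratios were computed within each library from expected counts and compared by two-sided exact permutation tests (scipy 1.17.1). Correlations between the 4 genes used log2 FPKM, and the search for transcripts alike in pattern used log2(TMM-scaled CPM + 1).

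The 4 genes and all lists were chosen with earlier results of these data known. Named were the 4 genes, genes whose identifier number lay within 1000 of theirs (and the like stretch of 1A) with a mean FPKM of at least 5, at most 10, the 5 transcripts closest in pattern, and the 10 most abundant at 20 °C. The reference table matched 0 of the 107891 gene identifiers, so lists of other storage proteins, folding factors, regulators and cell type markers by name, and sequences, were not used here. Alternatives were the replicate block, library size, other filters, gene sums, limma on log2(FPKM + 1) or log2(FPKM + 0.1), DESeq2 (version 1.42.0), 1 model over 9 samples and leaving out each plant. Ratios between single members and to neighbouring genes were added after seeing the data.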

Additional observations from a re-analysis of the deposited data

How the results depend on the processing

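The count of HMW glutenin transcripts called at 30 against 20 °C was 0, and became 1 with the replicate block, 1 with counts summed over genes and 1 with DESeq2. The call with summed counts was only just under the threshold (edgeR FDR 0.0499), and 2333 of all 43314 genes were called lower there. Leaving out each replicate gave 0 to 3. At 40 against 20 °C the count was 0, and became 2 with library size, 2 with limma on log2(FPKM + 1), 2 on log2(FPKM + 0.1) and 1 with DESeq2, with 0 to 4 when each replicate was left out. On log2(FPKM + 0.1), limma called 4703 of all 46250 transcripts lower. At 40 against 30 °C the count of HMW glutenin transcripts was 0 under all 17 alternatives. The log2 fold change of 40 against 30 °C turned negative for TraesCS1B02G329711.1 with library size (-0.12) and limma (-0.12 at both pseudocounts), and for TraesCS1D02G317211.1 with library size (-0.12) and limma (-0.11 at both). With replicates left out it ran from -0.24 to 0.26, from -0.18 to 0.25 and, for TraesCS1D02G317301.1, from -0.45 to 0.10, and the log2 ratio of TraesCS1D02G317211 to TraesCS1B02G329711 from -0.0083 to 0.046. The Glu-D1 to Glu-B1 log2 ratio of 40 against 30 °C was -0.040 by TPM, and the cause of these shifts was not tested. Against 20 °C, all 4 genes kept a negative log2 fold change under every alternative. The library share kept its direction under all 10 alternatives in each comparison. Over all transcripts, 2918 calls at 30 against 20 °C became 1703 without the filter, 5554 by gene, 4844 with DESeq2 and 1028 to 4860 with replicates left out. The 8587 calls at 40 against 20 °C became 5483 to 8439 with replicates left out, and the 2293 at 40 against 30 °C became 1184 with the replicate block and 1224 to 1963 with replicates left out. The correlation of deviations of log2 CPM from the group mean was computed between same-numbered plants. The values were 0.021 to 0.13 between 20 and 30 °C, -0.07 to 0.069 between 20 and 40 °C and -0.116 to 0.063 between 30 and 40 °C. Between differently numbered plants the correlations ran from -0.167 to 0.17. All these values are small, and they do not settle whether the replicate numbers mark a pairing. Every value of these genes lay far above the depth floor, and exact tests of shares and ratios with 3 plants per group could not go below 0.1.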

Other observations

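The 10 most abundant transcripts at 20 °C ranged from 9846 to 24298 mean FPKM there, above the 5292 FPKM of TraesCS1B02G329711.1. edgeR called none of them in any comparison. Over all transcripts tested, edgeR called 2.28%, 7.69% and 0.936% lower for 30 against 20, 40 against 20 and 40 against 30 °C. It called 4.07%, 10.9% and 4.2% higher. A count of 0 among 10 is therefore no result about these transcripts. At an unadjusted edgeR p under 0.05, 1, 0 and 0 were lower, beside 11.6%, 15.7% and 8.45% of all transcripts. The log2 fold changes of the 10 ran from -0.55 to 0.04 at 30 against 20 °C and from -0.25 to 0.19 at 40 against 20 °C. At 40 °C, replicate 3 was the highest plant for TraesCS1D02G001200.1 (11787, 11186 and 16476 FPKM in replicates 1 to 3) and for TraesCS6B02G066000.1 (9921, 8172 and 13873 FPKM), the same plant that was highest for all 4 HMW glutenin genes. It was the lowest plant for TraesCSU02G260700.1 (18797, 19465 and 18677 FPKM), the most abundant transcript of all.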
